A study of Homo sapiens with 16 samples.

Results

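U2OS, a human osteosarcoma line, was set against HCT116, a human colorectal carcinoma line, at baseline. The members were taken by their labels, as the libraries of each line that received control siRNA with no other change, which gives 2 U2OS and 2 HCT116 libraries, 4 of the 16 libraries of the series. The U2OS cells are labelled wild type, and so are these HCT116 cells, which stand apart from the SAM68 knockout HCT116 cells of the same series. All 4 cultures received a pool of non-targeting siRNAs at 50 nM with a lipid reagent and were harvested after 48 h, so both lines carry the same transfection, and no untransfected cells enter the comparison. Both lines were grown in the same serum-containing medium, per the labels' protocols. Poly(A) RNA was sequenced with a strand-specific kit. The series as a whole perturbed SAM68, an RNA-binding protein of the STAR family, and NORAD, a long noncoding RNA that binds Pumilio proteins. It used U2OS for SAM68 and HCT116 for NORAD and the SAM68 knockout, and the present comparison gives the levels of both lines under control siRNA.

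Epithelial cells are joined to their neighbours by E-cadherin at adherens junctions, by claudins at tight junctions and by desmosomes anchored to keratin filaments, and they keep an apical and a basal side. Mesenchymal cells, among them the osteoblast lineage from which osteosarcoma is thought to arise, carry N-cadherin and vimentin filaments and secrete a collagen-rich matrix. Transcription factors of the SNAI and ZEB families repress epithelial genes, E-cadherin among them, by binding E-boxes, and GRHL, OVOL and ESRP proteins maintain the epithelial state.

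Total expected counts were 20546908 and 25764606 in the U2OS libraries and 21425073 and 16203234 in the HCT116 libraries, within a range of 11349525 to 27387371 over the series. Levels are given as CPM, counts relative to the library total after scaling by TMM. The log CPM of replicates correlated across genes at 0.989 in U2OS and 0.991 in HCT116, and the chi-square per gene between them was 22.4 in U2OS and 17.3 in HCT116, above counting noise, so all 4 libraries were kept apart. The labels do not say whether the libraries of a pair came from separate cultures. The p-values rest on a spread within groups estimated over all 16 libraries of the series, and this spread may be technical. The labels also give no date or batch, so that line and handling cannot be told apart.

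The labelled lines were checked against 4 markers. CDH2, which encodes N-cadherin, was at 75 and 86.8 CPM in U2OS and had no count in either HCT116 library. Its level in U2OS was at least 989-fold higher, with HCT116 set to a floor of 3 counts over its 2 libraries (edgeR adjusted p = 6.21e-09). VIM, which encodes vimentin, was at 2585 and 2299 CPM in U2OS, against 2.65 and 2.83 CPM in HCT116. The log2 fold change, U2OS over HCT116 as everywhere below, was 9.80 ± 0.24 (SE, edgeR adjusted p = 2.71e-12). CDH1, the E-cadherin gene, was at 2.44 and 1.73 CPM in U2OS, against 59.2 and 72.5 CPM in HCT116 (log2 -4.99 ± 0.22, edgeR adjusted p = 3.08e-10). EPCAM, an epithelial adhesion molecule, was at 4.96 and 5.89 CPM in U2OS, against 282 and 293 CPM in HCT116 (log2 -5.72 ± 0.23, edgeR adjusted p = 1.27e-10). The libraries of the lines did not overlap for any of these 4 genes. CDH1 and EPCAM were low in U2OS but not at 0, and VIM was low but not at 0 in HCT116. In bulk RNA, fewer cells of a type and less RNA per cell cannot be told apart.

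Over all genes, 10760 of the 16444 tested had an adjusted p below 0.05, which is 65.4%, with 5862 higher in U2OS (35.6%) and 4898 lower (29.8%). A test against a 2-fold difference (glmTreat) called 5324 genes (32.4%), 3418 higher (20.8%) and 1906 lower (11.6%). The median log2 fold change over all tested genes was 0.104. Counts of list members below are read against these shares. The libraries of the lines did not overlap for 85.1% of tested genes (45.7% higher and 39.4% lower in U2OS), so a lack of overlap alone says little about any one of them.

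**Figure D1:**
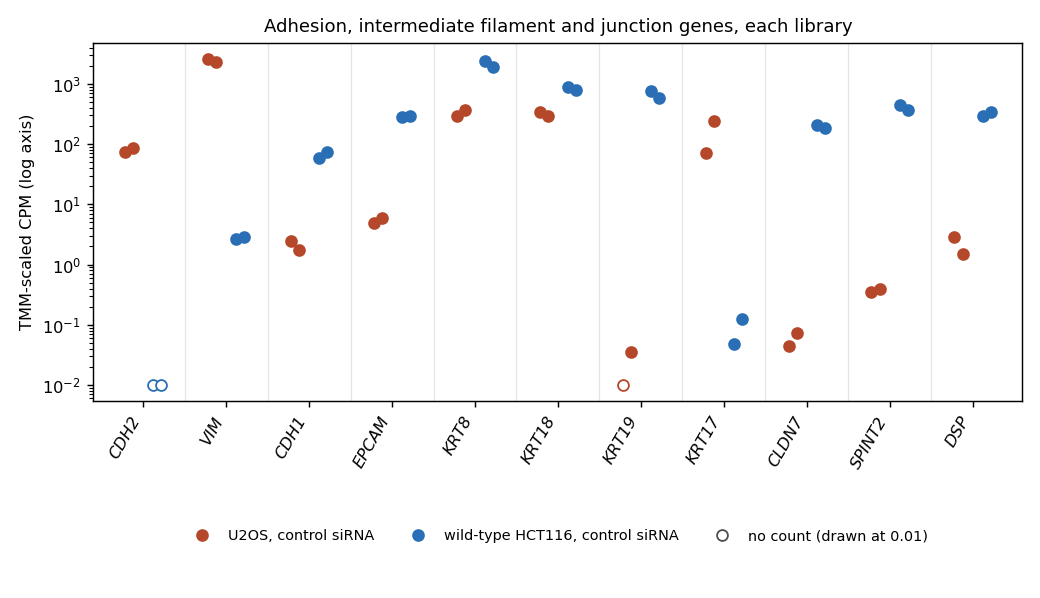
Level of 11 adhesion, filament and junction genes in each library, in TMM-scaled CPM on a log axis, with open points for libraries with no count, drawn at 0.01. U2OS lies above HCT116 for CDH2, VIM and KRT17 and below it for the other genes, and KRT8 lies between 288 and 2417 CPM over the 4 libraries.

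The epithelial programme, a list of 24 transcription factors, splicing and trafficking proteins and membrane proteases, was lower in U2OS in 20 members and higher in none, against 29.8% and 35.6% of all tested genes. Its median log2 was -6.97, and 18 members were lower past 2-fold. SPINT2, an inhibitor of membrane serine proteases, was at 0.354 and 0.395 CPM in U2OS, against 442 and 362 CPM in HCT116 (log2 -10.04 ± 0.32, edgeR adjusted p = 2.21e-11). ESRP1, the splicing regulator that sets epithelial exon choice, was at 0.266 and 0.18 CPM in U2OS, against 107 and 119 CPM in HCT116 (log2 -8.97 ± 0.30, edgeR adjusted p = 3.95e-11), and its paralog ESRP2 was at 0.31 and 0.252 CPM, against 58.7 and 57.7 CPM (log2 -7.68 ± 0.35). In these 3 genes the U2OS libraries lay close to no expression and the HCT116 libraries high.

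OVOL1, a zinc finger repressor of the mesenchymal state, had no count in U2OS and was at 18.5 and 16.9 CPM in HCT116, at least 298-fold lower in U2OS (edgeR adjusted p = 6.56e-09). BSPRY was likewise at 0 in U2OS, against 23 and 21.4 CPM in HCT116, at least 373-fold lower (edgeR adjusted p = 7.72e-09). RAB25, a small GTPase of apical recycling, was at 0 and 0.108 CPM in U2OS, against 62.2 and 59.5 CPM in HCT116 (edgeR adjusted p = 4.48e-10), and S100A14 was at 0 and 0.0359 CPM, against 98.1 and 81.2 CPM (edgeR adjusted p = 7.09e-10). The 4 members that did not pass the test were OVOL2 at 0.841 and 0.827 CPM in U2OS, against 1.4 and 0.189 CPM in HCT116, KLF5 at 40.9 and 46.9 against 39.3 and 40.9 CPM, MYO5B at 71.4 and 73 against 74.8 and 80.9 CPM, and AP1M2 at 53.7 and 50.2 against 68.6 and 69.2 CPM. OVOL2 is the member nearest to a log2 of 0, and the other 3 were named after their values were seen. The HCT116 libraries differed for OVOL2, which was called higher in U2OS without HCT116 replicate 1 (log2 2.10). MYO5B was called lower under an offset for GC content and length (-0.79), and AP1M2 in a fit on the 4 libraries alone (-0.38). Low levels in U2OS were not shared by every gene of the list: KLF5, an epithelial factor, was above 39 CPM in all 4 libraries.

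Junction genes showed the same direction with more exceptions. Of 29 tested adherens junction, tight junction and polarity genes, 20 were lower in U2OS and 4 higher, with 16 and 2 of them past 2-fold and a median log2 of -1.6. CLDN7, a claudin, was at 0.0443 and 0.0719 CPM in U2OS, against 206 and 183 CPM in HCT116 (edgeR adjusted p = 7.02e-11). CDH3, the P-cadherin gene, was at 0.177 and 0.108 CPM in U2OS, against 149 and 148 CPM in HCT116 (log2 -10.00 ± 0.37, edgeR adjusted p = 8.49e-11). The polarity genes CRB3, at 0 and 0.0719 CPM in U2OS against 15.2 and 10.5 CPM in HCT116, and LLGL2, at 1.24 and 1.22 against 125 and 79.9 CPM, fell with edgeR adjusted p = 1.78e-08 and 7.17e-10. Among those higher in U2OS was CGNL1, a paracingulin, at 19.1 and 23.7 CPM against 6.45 and 7.36 CPM in HCT116 (log2 1.64 ± 0.20, edgeR adjusted p = 5.31e-06). Claudins did not all go one way. CLDN1 was higher past 2-fold, at 5 and 4.89 CPM in U2OS, against 0.0963 and 0 CPM in HCT116 (edgeR adjusted p = 5.91e-07). It stands outside the rule for named genes and was named after its values were seen. A fit on the 4 libraries alone called 7 members higher in place of 4.

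The 250 bases before the start of a few epithelial genes are shown. The E-box that SNAI and ZEB factors are known to bind, CAGGTG, or CACCTG on the other strand, is in capitals. The stretches are RefSeq's, build GRCh38.p14, read 5′ to 3′ along the gene's strand. They were picked after their letters had been searched, so the difference between them was set by that choice. CRB3 (chr19:6464021-6464270, plus strand), RAB25 (chr1:156060910-156061159, plus strand) and DSP (chr6:7541421-7541670, plus strand), the desmoplakin gene, were lower in U2OS. VIM (chr10:17227991-17228240, plus strand) was higher and stands beside them for comparison.
CRB3: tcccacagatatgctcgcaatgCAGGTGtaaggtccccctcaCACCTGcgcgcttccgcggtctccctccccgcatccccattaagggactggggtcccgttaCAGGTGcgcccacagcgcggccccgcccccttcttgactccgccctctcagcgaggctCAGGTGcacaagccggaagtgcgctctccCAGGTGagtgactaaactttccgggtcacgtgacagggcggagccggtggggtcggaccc
RAB25: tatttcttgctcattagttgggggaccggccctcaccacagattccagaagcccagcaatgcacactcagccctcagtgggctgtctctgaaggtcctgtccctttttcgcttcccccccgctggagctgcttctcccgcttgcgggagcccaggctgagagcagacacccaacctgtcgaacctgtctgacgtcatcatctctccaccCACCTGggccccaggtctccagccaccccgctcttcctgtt
DSP: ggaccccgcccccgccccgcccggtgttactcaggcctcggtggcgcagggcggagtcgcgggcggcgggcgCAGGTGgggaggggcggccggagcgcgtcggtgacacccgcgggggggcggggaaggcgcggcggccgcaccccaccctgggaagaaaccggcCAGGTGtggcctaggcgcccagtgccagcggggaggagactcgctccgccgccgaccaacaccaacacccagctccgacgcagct
VIM: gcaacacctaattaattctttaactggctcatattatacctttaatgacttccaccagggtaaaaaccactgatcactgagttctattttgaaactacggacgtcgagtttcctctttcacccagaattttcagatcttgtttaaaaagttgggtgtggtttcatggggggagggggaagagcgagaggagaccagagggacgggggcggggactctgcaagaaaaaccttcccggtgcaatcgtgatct
CRB3 holds the motif 5 times, between 228 and 60 bases before the start, DSP 2 times and RAB25 1 time, 41 bases before it, while the VIM stretch holds none. Over all promoters in the table, 4781 of 27305 (17.5%) hold it at least once. Only 14 of the 24 epithelial programme genes and 19 of the 30 junction genes have a stretch in the table, under 80%, so a share over the lists is void and is not given. A match is a run of letters and not a site shown to be bound.

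Desmosome and keratin genes split by keratin. Of 23 tested members, 16 were lower in U2OS, all 16 past 2-fold, and 3 were higher, all past 2-fold, with a median log2 of -2.96. KRT19, a keratin of simple epithelia, was at 0 and 0.0359 CPM in U2OS, against 751 and 581 CPM in HCT116 (edgeR adjusted p = 2.21e-11). DSP was at 2.83 and 1.47 CPM in U2OS, against 297 and 337 CPM in HCT116 (log2 -7.22 ± 0.41, edgeR adjusted p = 2.93e-09). Its partners in the plaque PPL, the periplakin gene, at 0.576 and 0.395 CPM in U2OS against 61.6 and 53.6 CPM in HCT116 (log2 -6.89 ± 0.27), and EVPL, the envoplakin gene, at 0 and 0.216 against 83.7 and 54 CPM, were lower too. These genes were low in both U2OS libraries.

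KRT8 and KRT18, the paired keratins of simple epithelia, were lower in U2OS but far from absent. Both stand outside the rule for named genes. KRT8 was at 288 and 367 CPM in U2OS, against 2417 and 1896 CPM in HCT116 (log2 -2.72 ± 0.23, edgeR adjusted p = 1.28e-07), and KRT18 at 342 and 295 CPM, against 893 and 802 CPM (log2 -1.41 ± 0.15, edgeR adjusted p = 1.12e-06). Per length, in the deposited TPM, KRT8 averaged 413 in U2OS and 2132 in HCT116, and KRT18 averaged 515 in U2OS and 1068 in HCT116. The 3 members higher in U2OS were keratins as well. KRT17, a keratin of basal and stressed epithelia, was at 72.3 and 245 CPM in U2OS, against 0.0481 and 0.126 CPM in HCT116 (edgeR adjusted p = 1.45e-06). KRT14, another keratin of basal layers, was at 4.29 and 6.29 CPM in U2OS, against 0.0481 and 0.0629 CPM in HCT116 (edgeR adjusted p = 1.91e-06). In the 6 other U2OS libraries KRT14 ran from 0.355 to 7.18 CPM. KRT80 was at 216 and 241 CPM in U2OS, against 38.9 and 45.2 CPM in HCT116 (log2 2.44 ± 0.19, edgeR adjusted p = 6.06e-08). KRT5, also a basal keratin, was at 0.0886 and 0.647 CPM in U2OS, against 0.0963 and 0.126 CPM in HCT116. It was not called (edgeR adjusted p = 0.173) and was named after its values were seen. KRT17 rested on few counts in HCT116, which gives a ratio of 2051 with an exact counting interval of 702 to 9948, and its U2OS libraries stood far apart. Its fitted log2 was 9.68 without U2OS replicate 2, 11.47 without U2OS replicate 1 and 11.51 without HCT116 replicate 2.

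The transcription factors of epithelial-mesenchymal transition did not all lie on the mesenchymal side. Of 13, 11 were tested, and 6 were higher and 3 lower in U2OS, all past 2-fold, with a median log2 of 2.38 when genes at 0 are put at their bound and 3.62 as fitted. ZEB1 was at 54.2 and 52.3 CPM in U2OS, against 4.19 and 4.47 CPM in HCT116 (log2 3.62 ± 0.40, edgeR adjusted p = 2.25e-06). SNAI2, also called Slug, was at 9.43 and 11.1 CPM in U2OS, against 0.0963 and 0 CPM in HCT116 (edgeR adjusted p = 6.56e-08). TCF4, a basic helix-loop-helix factor that binds E-boxes, was at 51.8 and 60.8 CPM in U2OS and at 0 in HCT116, at least 689-fold higher (edgeR adjusted p = 7.99e-09), and PRRX1, a homeobox factor of mesenchyme, was at 7.08 and 5.97 CPM and at 0 in HCT116, at least 79.8-fold higher (edgeR adjusted p = 7.57e-07).

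At much lower levels, ZEB2 was at 0.664 and 0.611 CPM and TWIST2 at 0.31 and 0.539 CPM in U2OS, with no count in HCT116, at least 7.79-fold and 5.19-fold higher (edgeR adjusted p = 0.000952 and 0.0022). TWIST1 went the other way: it had no count in U2OS and was at 1.35 and 1.32 CPM in HCT116, at least 22.4-fold lower (edgeR adjusted p = 0.000113). FOXC1 was at 5.8 and 6.61 CPM in U2OS, against 26.1 and 18.9 CPM in HCT116 (log2 -1.86 ± 0.23, edgeR adjusted p = 6.09e-06). PRRX2 was at 2.97 and 2.77 CPM in U2OS, against 16.4 and 8.74 CPM in HCT116 (log2 -2.14 ± 0.28), and its call ended under an offset for GC content and length (log2 -0.37). SNAI1, the Snail gene, was at 5.27 and 8.27 CPM in U2OS and at 9.96 and 9.43 CPM in HCT116 and was not called (log2 -0.51 ± 0.25, edgeR adjusted p = 0.0857), though without U2OS replicate 2 it was called lower at -0.87. The line with the mesenchymal marker levels thus had more ZEB1, SNAI2, TCF4 and PRRX1 mRNA and no TWIST1 count.

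**Figure D2:**
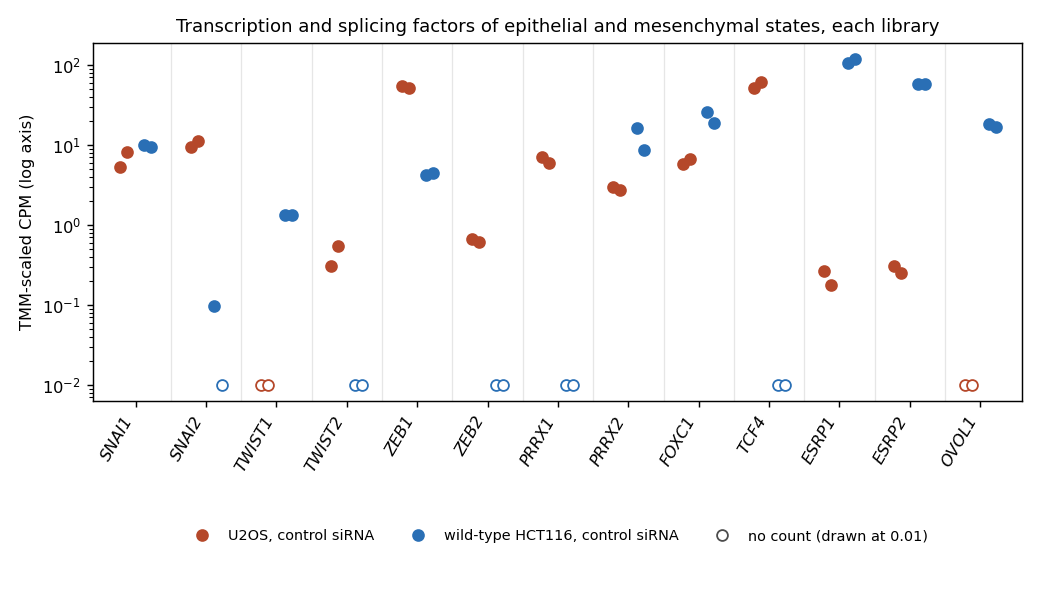
Level of 10 transcription factors of epithelial-mesenchymal transition and of the epithelial genes ESRP1, ESRP2 and OVOL1 in each library, in TMM-scaled CPM on a log axis, with open points for no count, drawn at 0.01. ZEB1, SNAI2, TCF4 and PRRX1 are higher in U2OS, TWIST1, PRRX2 and FOXC1 are lower in U2OS, and SNAI1 lies below 10 CPM in all 4 libraries.

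Mesenchymal adhesion and contractile genes were mostly higher in U2OS. Of 30 genes, all tested, 21 were higher and 5 lower, 18 and 4 past 2-fold, with a median log2 of 1.92. The surface glycoprotein gene THY1 was at 147 and 168 CPM in U2OS and at 0 in HCT116, at least 1925-fold higher (edgeR adjusted p = 2.72e-10). The cadherin genes CDH13, at 73.5 and 80.7 CPM in U2OS, and CDH11, a cadherin of osteoblasts, at 12.6 and 20.6 CPM, had no count in HCT116, at least 943-fold and 203-fold higher. PDGFRA, a growth factor receptor of mesenchyme, was at 25.1 and 30 CPM in U2OS and at 0 in HCT116, at least 337-fold higher (edgeR adjusted p = 1.17e-08).

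NT5E encodes a surface nucleotidase widely used to define mesenchymal stromal cells, and it ran against the list. It was at 0.0443 and 0.0719 CPM in U2OS, against 105 and 108 CPM in HCT116 (edgeR adjusted p = 5.98e-12), which places it among the 12 largest decreases of all genes. S100A4, a calcium-binding protein often taken as a mesenchymal marker, was at 21.3 and 16.7 CPM in U2OS, against 130 and 105 CPM in HCT116 (log2 -2.64 ± 0.30, edgeR adjusted p = 2.67e-06). Caveolin genes parted: CAV2 was at 20.1 and 23.4 CPM in U2OS, against 159 and 150 CPM in HCT116 (log2 -2.82 ± 0.16, edgeR adjusted p = 2.93e-09), while CAV1 was at 563 and 538 CPM in U2OS and 465 and 514 CPM in HCT116 and was not called (log2 0.17 ± 0.16). CAVIN3, a coat protein of caveolae, was at 0.0443 and 0.0719 CPM in U2OS, against 11.4 and 4.72 CPM in HCT116 (edgeR adjusted p = 1.92e-06). The related gene CAVIN1 went the other way, at 540 and 626 CPM in U2OS, against 189 and 166 CPM in HCT116 (log2 1.71 ± 0.17, edgeR adjusted p = 7.36e-07). CAVIN1 was named after its values were seen.

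The extracellular matrix list lay higher in U2OS with few exceptions. Of 39 tested members of 42, 34 were higher (33 past 2-fold), 2 lower and 3 not called, with a median log2 of 4.51 with genes at their bound and 4.69 as fitted. The summed level of the list was 8374 and 12114 CPM in U2OS, against 995 and 940 CPM in HCT116. SPARC, a collagen-binding glycoprotein abundant in bone, was at 979 and 1405 CPM in U2OS, against 0.144 and 0.0629 CPM in HCT116 (edgeR adjusted p = 1.02e-10). FN1, the fibronectin gene, was at 1684 and 2254 CPM in U2OS, against 16.5 and 19.6 CPM in HCT116 (log2 6.77 ± 0.28, edgeR adjusted p = 1.57e-10). COL1A1, the main chain of type I collagen, was at 746 and 1592 CPM in U2OS, against 13.9 and 11.3 CPM in HCT116 (log2 6.53 ± 0.49, edgeR adjusted p = 3.98e-08, and 5.89 without U2OS replicate 2). COL1A2, the other chain of type I collagen, was at 0.266 and 0.288 CPM in U2OS with no count in HCT116, and was not tested. FN1, COL1A1 and COL1A2 were named after their values were seen.

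The gelatinase gene MMP2, at 223 and 345 CPM in U2OS, the fibrillin gene FBN2, at 230 and 282 CPM, the collagen cross-linking enzyme gene LOX, at 81.7 and 75 CPM, and COL11A1, at 47.3 and 86.9 CPM, had no count in HCT116, and they were at least 3469-fold, 3134-fold, 958-fold and 820-fold higher in U2OS. Against the direction of the list, VCAN, the versican gene, was at 1.77 and 2.19 CPM in U2OS, against 90.8 and 107 CPM in HCT116 (log2 -5.63 ± 0.31, edgeR adjusted p = 1.92e-09), and COL18A1, a basement membrane collagen, at 5.05 and 5.93 CPM, against 119 and 69.8 CPM (log2 -4.10 ± 0.27, edgeR adjusted p = 1.26e-08). These were the 2 members called lower, and their libraries did not overlap.

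**Figure D3:**
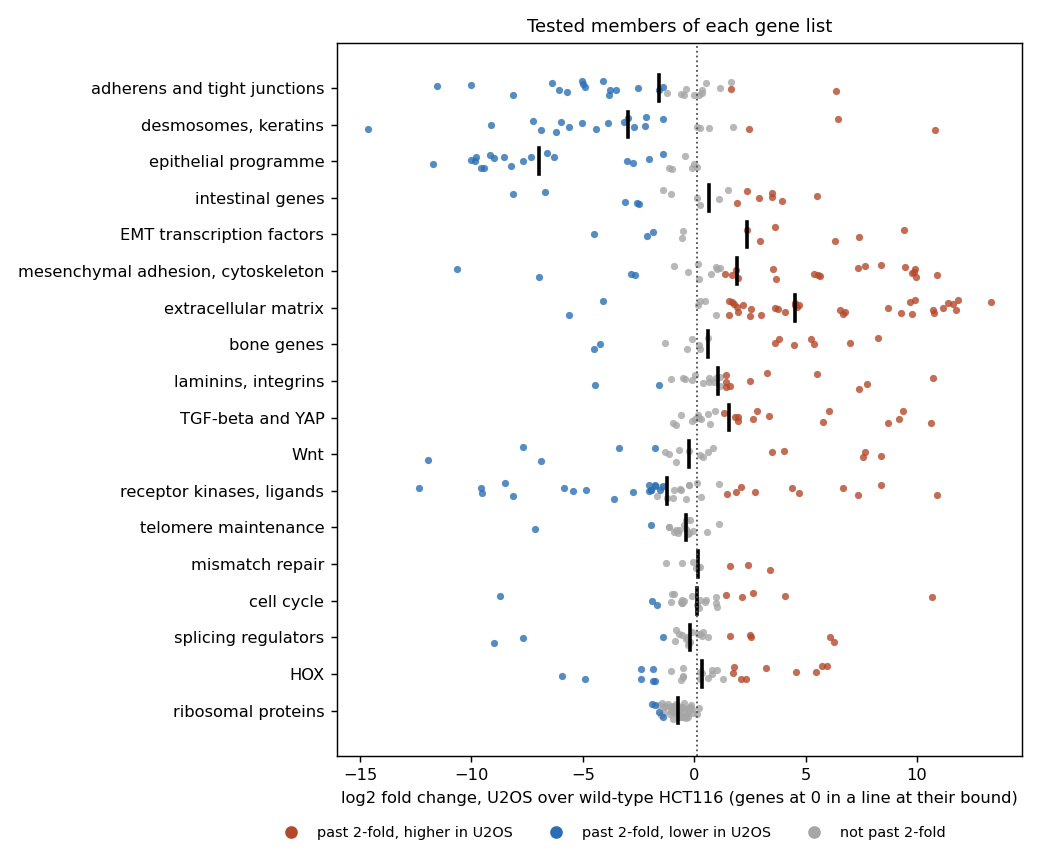
Log2 fold change, U2OS over HCT116, of every tested member of 18 gene lists, with genes that had no count in one line at their bound, the list median as a black bar and the median of all tested genes (0.104) as a dotted line. Colours mark members past 2-fold. The epithelial programme has its median at -6.97 and the extracellular matrix at 4.51, and most other lists spread to both sides.

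Genes of bone were higher in U2OS for some members and at or near 0 for others. Of 24, 15 were tested, and 8 were higher and 3 lower in U2OS, with a median log2 of 0.595. RUNX2, the master transcription factor of osteoblasts, was at 40 and 55.4 CPM in U2OS, against 1.68 and 2.58 CPM in HCT116 (log2 4.50 ± 0.31, edgeR adjusted p = 1.66e-08). TNFRSF11B, the gene of osteoprotegerin, a decoy receptor that restrains osteoclasts, was at 28.2 and 21.2 CPM in U2OS and at 0 in HCT116, at least 302-fold higher (edgeR adjusted p = 3.55e-08). BMPR1B, a receptor of bone morphogenetic proteins, was at 10.6 and 10.5 CPM in U2OS and at 0 in HCT116, at least 129-fold higher. ALPL, the tissue-nonspecific alkaline phosphatase gene, was at 10.1 and 4.56 CPM in U2OS, against 0.289 and 0.0629 CPM in HCT116 (edgeR adjusted p = 4.61e-06), and SPP1, the osteopontin gene, at 20.3 and 17.1 CPM, against 1.68 and 0.881 CPM (log2 3.83 ± 0.38, edgeR adjusted p = 7.87e-07).

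SP7, the osterix gene, was at 0.0886 and 0.108 CPM in U2OS and had no count in HCT116, and IBSP, the gene of bone sialoprotein, was at 0.0443 and 0.0359 CPM in U2OS with none in HCT116; neither was tested. They were named after their values were seen. The homeobox gene MSX1 was at 4.34 and 4.28 CPM in U2OS, against 94.5 and 64.6 CPM in HCT116 (log2 -4.21 ± 0.24, edgeR adjusted p = 3.55e-09), and its paralog MSX2 at 3.45 and 3.77 CPM, against 8.86 and 8.93 CPM (log2 -1.30 ± 0.23, edgeR adjusted p = 0.000234).

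Intestinal genes were low in both lines for the most part. Of 40 colon and intestinal genes, 18 were tested, 13 had no count in U2OS and 17 none in HCT116, and among those tested 8 were higher and 6 lower in U2OS, with a median log2 of 0.683. The list's summed level was 98.1 and 125 CPM in U2OS, against 105 and 96.4 CPM in HCT116. CDX2, the transcription factor of intestinal identity, was at 1.64 and 2.41 CPM in U2OS, against 13.2 and 10.9 CPM in HCT116 (log2 -2.56 ± 0.29, edgeR adjusted p = 3.00e-06). ESPN, which bundles actin in microvilli, was at 0 in U2OS, against 21.5 and 11.9 CPM in HCT116, at least 281-fold lower (edgeR adjusted p = 3.36e-08). EPHB2, a receptor of the crypt base, was higher in U2OS, at 57.8 and 76.7 CPM against 31.1 and 30.3 CPM in HCT116 (log2 1.13 ± 0.21, edgeR adjusted p = 0.000287). VIL1, CDX1, TFF1, TFF3 and FABP1, genes of differentiated gut epithelium named after their values were seen, had no count in any of the 4 libraries. The count of 8 higher became 5 under a filter of at least 1 CPM.

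Laminins and integrins, the sheet and receptors by which cells hold to a basement membrane, were higher in U2OS in 17 of 24 tested members and lower in 3, with 10 and 2 past 2-fold and a median log2 of 1.06. LAMA1, a laminin alpha chain, was at 140 and 136 CPM in U2OS and at 0 in HCT116, at least 1686-fold higher (edgeR adjusted p = 4.65e-10). ITGA4, an integrin of motile cells, was at 22.7 and 12.6 CPM in U2OS and at 0 in HCT116, at least 216-fold higher (edgeR adjusted p = 2.93e-06), and ITGB3, a vitronectin receptor chain, at 11 and 18.8 CPM, against 0.0963 and 0.0629 CPM (edgeR adjusted p = 6.15e-07). The 3 members lower in U2OS were ITGB4, LAMA5 and ITGA2. ITGB4, the integrin of hemidesmosomes, was at 5.93 and 10.2 CPM in U2OS, against 206 and 149 CPM in HCT116 (log2 -4.45 ± 0.35, edgeR adjusted p = 7.46e-08). LAMA5 was at 43.2 and 74.5 CPM in U2OS, against 214 and 138 CPM in HCT116 (log2 -1.58 ± 0.32), and ITGA2 at 34.4 and 42.4 CPM, against 75 and 83.8 CPM (log2 -1.05 ± 0.27). The count of 3 became 5 under the GC content and length offset and 5 in the 8 other libraries.

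TGF-beta drives matrix synthesis and mesenchymal change, and YAP and its paralog TAZ relay cell tension to an overlapping set of targets. Of 24 ligands, receptors, mediators and targets, all tested, 16 were higher in U2OS, 13 of them past 2-fold, and 3 were lower, none past 2-fold, with a median log2 of 1.58. Among ligands, TGFB2 was at 149 and 146 CPM in U2OS, against 0.144 and 0.377 CPM in HCT116 (edgeR adjusted p = 1.27e-10), and INHBA, the activin A chain, at 19.6 and 25.6 CPM, against 0 and 0.0629 CPM (edgeR adjusted p = 1.25e-08). The receptor gene TGFBR2, known to carry a frameshift in HCT116, was at 81 and 94 CPM in U2OS, against 43.1 and 49.8 CPM in HCT116 (log2 0.92 ± 0.19, edgeR adjusted p = 0.000805). Among mediators, YAP1 was at 163 and 171 CPM in U2OS, against 102 and 113 CPM in HCT116 (log2 0.64 ± 0.16, edgeR adjusted p = 0.00343), a call that ended in the 8 other libraries at 0.36. SMAD4 was at 38.7 and 39 CPM, against 54.1 and 62.6 CPM (log2 -0.58 ± 0.15), and WWTR1, the TAZ gene, at 24.4 and 34.9 CPM, against 53.7 and 50.8 CPM (log2 -0.82 ± 0.17). TGFBR2 and YAP1 stand outside the rule for named genes.

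Among target genes, ANKRD1 was at 232 and 224 CPM in U2OS, against 0 and 0.314 CPM in HCT116 (edgeR adjusted p = 1.57e-10). CCN2, the connective tissue growth factor gene, was at 185 and 221 CPM in U2OS, against 2.98 and 3.21 CPM in HCT116 (log2 6.04 ± 0.30, edgeR adjusted p = 8.08e-10). TGFBI was at 65.6 and 97.6 CPM in U2OS, against 0.0963 and 0.314 CPM in HCT116 (edgeR adjusted p = 4.68e-09). All 3 had U2OS libraries well above every HCT116 library.

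Wnt genes fell on both sides. HCT116 is known to carry an activating beta-catenin mutation, and of 19 tested Wnt targets and feedback genes 9 were lower in U2OS and 7 higher, 5 each past 2-fold, with a median log2 of -0.226. DKK1, a secreted Wnt antagonist, was at 0.133 and 0 CPM in U2OS, against 264 and 266 CPM in HCT116 (edgeR adjusted p = 1.19e-10). TCF7, a nuclear partner of beta-catenin, was at 0.0886 and 0.144 CPM in U2OS, against 24.8 and 26.8 CPM in HCT116 (log2 -7.69 ± 0.33, edgeR adjusted p = 5.32e-10). RNF43, which removes Wnt receptors from the surface, was at 20.7 and 23.5 CPM in U2OS, against 58.6 and 51.9 CPM in HCT116 (log2 -1.32 ± 0.20, edgeR adjusted p = 4.55e-05). LEF1, the sister factor of TCF7, showed the reverse of it, at 13.9 and 19.9 CPM in U2OS and at 0 in HCT116, at least 206-fold higher (edgeR adjusted p = 1.20e-07). WNT5A, a noncanonical ligand, at 17.2 and 14.2 CPM, and SFRP1, a secreted inhibitor, at 27 and 27.5 CPM, were also at 0 in HCT116, at least 192-fold and 333-fold higher in U2OS. TCF7 was thus near 0 in U2OS, and LEF1 had no count in HCT116.

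Receptor kinases and their ligands differed in both directions. Of 41 tested, 25 were lower in U2OS and 11 higher, 18 and 10 past 2-fold, with a median log2 of -1.22. EREG, an EGF receptor ligand, was at 2.7 and 2.55 CPM in U2OS, against 703 and 758 CPM in HCT116 (log2 -8.12 ± 0.24, edgeR adjusted p = 1.07e-11). MST1R, an epithelial receptor kinase, was at 0.0886 and 0.144 CPM in U2OS, against 44.8 and 45.6 CPM in HCT116 (log2 -8.50 ± 0.33, edgeR adjusted p = 1.19e-10), and the ligand gene FGF19 was at 0, against 41.9 and 44.8 CPM, at least 729-fold lower. The platelet-derived growth factor receptor gene PDGFRB was at 58.7 and 76.5 CPM in U2OS, against 0.337 and 0.503 CPM in HCT116 (log2 7.34 ± 0.34, edgeR adjusted p = 4.32e-10), and DDR2, a collagen receptor, at 39.7 and 36.9 CPM, against 1.25 and 1.7 CPM (log2 4.71 ± 0.24, edgeR adjusted p = 1.06e-09). Insulin-like growth factor binding proteins split: IGFBP5 was at 160 and 286 CPM in U2OS, against 0.0963 and 0.126 CPM in HCT116 (edgeR adjusted p = 1.38e-09), and IGFBP2 at 0 and 0.0359 CPM, against 166 and 110 CPM (edgeR adjusted p = 1.06e-09).

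HOX genes keep a record of position along the body, and the 4 clusters differed in direction. Of 39 HOX genes, in 36 rows since neighbours are counted together in 2 of them, 29 rows were tested. In the HOXC cluster 6 of 6 tested rows were higher in U2OS and in the HOXD cluster 4 of 4, in the HOXB cluster 5 of 9 were lower and none higher, and in the HOXA cluster 2 of 10 were higher and 5 lower. HOXC8 was at 8.15 and 9.88 CPM in U2OS, against 0.963 and 0.943 CPM in HCT116 (log2 3.23 ± 0.26, edgeR adjusted p = 1.02e-07), and HOXC10 at 10.8 and 13.8 CPM, against 2.45 and 2.45 CPM (log2 2.32 ± 0.24, edgeR adjusted p = 1.33e-06). HOXC11 was at 4.83 and 6.15 CPM in U2OS, against 0.144 and 0 CPM in HCT116 (edgeR adjusted p = 3.30e-06).

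HOXD9, at 2.92 and 4.24 CPM in U2OS, and HOXD10, at 1.68 and 2.26 CPM, had no count in HCT116; both were named after their values were seen. HOXB4 was at 0.31 and 0.288 CPM in U2OS, against 20.3 and 17 CPM in HCT116 (log2 -5.94 ± 0.26, edgeR adjusted p = 2.76e-10), and HOXB8 at 0.93 and 0.934 CPM, against 32.2 and 24.3 CPM (log2 -4.91 ± 0.26, edgeR adjusted p = 1.31e-09). Within the same cluster HOXB13, at 11 and 14.6 CPM in U2OS and 12.1 and 9.62 CPM in HCT116, and HOXB3, at 12.1 and 13.7 against 11.2 and 9.18 CPM, were not called, although HOXB3 was called higher with library totals in place of TMM (log2 0.50) and HOXB13 under the GC content and length offset (0.49). Both were also named after their values were seen. The joined row of HOXA9 and HOXA10 was at 22.1 and 22.2 CPM in U2OS, against 70.9 and 76.7 CPM in HCT116 (log2 -1.74 ± 0.15, edgeR adjusted p = 1.31e-07).

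**Figure D4:**
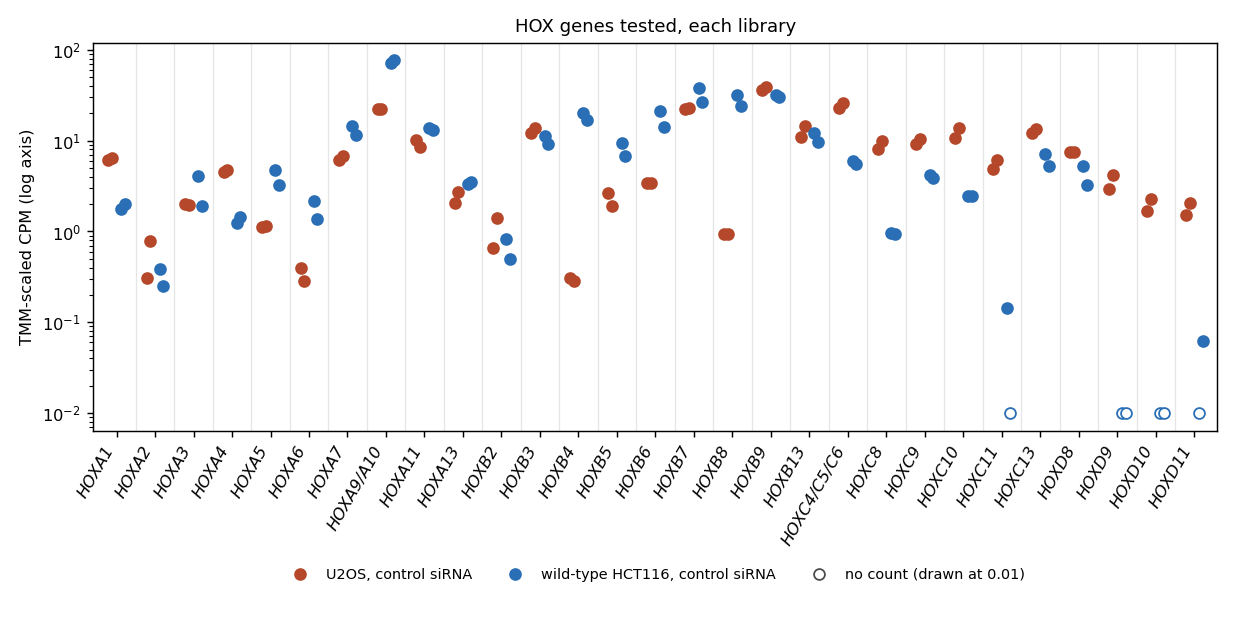
Level of each tested HOX row in each library, in TMM-scaled CPM on a log axis, in cluster order, with open points for no count, drawn at 0.01. HOXC and HOXD rows lie higher in U2OS, and HOXB4 and HOXB8 lie lower in U2OS.

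Telomeres are kept in most tumours by telomerase, whose catalytic subunit is TERT, and U2OS is known to use recombination instead. TERT had no count in U2OS and was at 9.43 and 7.23 CPM in HCT116, at least 140-fold lower in U2OS (edgeR adjusted p = 1.03e-07). Of 19 tested telomere genes 2 were higher in U2OS and 8 lower, with 2 past 2-fold, both lower, and a median log2 of -0.352. TERF2, a shelterin protein, was at 37.4 and 40.4 CPM in U2OS, against 81.4 and 87.1 CPM in HCT116 (log2 -1.11 ± 0.14, edgeR adjusted p = 8.78e-06), and CTC1, of the complex that fills in the telomere end, at 19.7 and 21 CPM, against 42.5 and 45.9 CPM (log2 -1.12 ± 0.17, edgeR adjusted p = 4.26e-05). ATRX, a chromatin remodeller, was at 188 and 178 CPM in U2OS, against 80.4 and 88.9 CPM in HCT116 (log2 1.11 ± 0.29, edgeR adjusted p = 0.00367). That call ended in the 8 other libraries (log2 0.56). The count of 2 higher became 1 without U2OS replicate 2, without HCT116 replicate 1 and without HCT116 replicate 2, and the count of 8 lower became 13 under the GC content and length offset and 5 in the 8 other libraries.

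HCT116 is known as a mismatch repair deficient line. Of 9 genes on the mismatch repair list, 3 were higher in U2OS and 1 lower. MSH3 was at 30.3 and 28.2 CPM in U2OS, against 4.81 and 6.04 CPM in HCT116 (log2 2.43 ± 0.27, edgeR adjusted p = 2.18e-06), and MSH6 at 331 and 308 CPM, against 97.2 and 116 CPM (log2 1.59 ± 0.18, edgeR adjusted p = 2.82e-06). Both were past 2-fold. The gene called lower was MGMT, the repair methyltransferase, at 4.6 and 5.61 CPM in U2OS, against 15.6 and 9.18 CPM in HCT116 (log2 -1.28 ± 0.36), and its call ended without U2OS replicate 1 (-1.12) and without HCT116 replicate 1 (-0.85).

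Among cell cycle genes, CDKN2A, which encodes an inhibitor of the cyclin D kinases and the p53 regulator ARF, had no count in U2OS and was at 33.2 and 16.9 CPM in HCT116, at least 420-fold lower (edgeR adjusted p = 3.87e-07). Its neighbours on the chromosome were read in both lines: CDKN2B at 13.5 and 17.9 CPM in U2OS, against 3.9 and 3.08 CPM in HCT116 (log2 2.16 ± 0.29, edgeR adjusted p = 1.59e-05), and MTAP at 59.7 and 59.1 CPM, against 249 and 292 CPM (log2 -2.18 ± 0.15, edgeR adjusted p = 1.50e-08). The CDKN2B call ended in the 8 other libraries (log2 0.33). MTAP stands outside the rule for named genes and was taken as a neighbour after values were seen.

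Cyclin D genes differed in both directions. CCND2 was at 147 and 119 CPM in U2OS and at 0 in HCT116, at least 1631-fold higher (edgeR adjusted p = 1.31e-09), and CCND1 at 181 and 199 CPM in U2OS, against 632 and 590 CPM in HCT116 (log2 -1.69 ± 0.16, edgeR adjusted p = 3.78e-07). MYC was at 110 and 106 CPM in U2OS, against 420 and 389 CPM in HCT116 (log2 -1.90 ± 0.14, edgeR adjusted p = 3.01e-08). CDKN2C was at 42.2 and 50.6 CPM in U2OS, against 7.46 and 7.42 CPM in HCT116 (log2 2.64 ± 0.22, edgeR adjusted p = 1.47e-07). Over the 25 cell cycle genes, all tested, 10 were higher and 7 lower, with a median log2 of 0.145, near that of all genes, and the count of 7 became 11 under the GC content and length offset.

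Of the genes the series perturbs, KHDRBS1, the gene of SAM68, was at 229 and 232 CPM in U2OS, against 225 and 250 CPM in HCT116 (log2 -0.04 ± 0.20, edgeR adjusted p = 0.861), and its sign changed with the scaling, while NORAD was higher in U2OS. NORAD was at 418 and 412 CPM in U2OS, against 258 and 241 CPM in HCT116 (log2 0.74 ± 0.20, edgeR adjusted p = 0.00435), in both U2OS libraries above both HCT116 libraries but not past 2-fold. PUM2, a Pumilio protein that NORAD binds, was at 199 and 182 CPM in U2OS, against 153 and 188 CPM in HCT116 (log2 0.16 ± 0.22, edgeR adjusted p = 0.542), with overlapping libraries. Other STAR family members differed more. QKI, which acts in splicing and RNA stability, was at 158 and 186 CPM in U2OS, against 27.4 and 33.1 CPM in HCT116 (log2 2.51 ± 0.24, edgeR adjusted p = 4.68e-07). KHDRBS3, a paralog of SAM68 also called SLM2, was at 42.6 and 41.9 CPM in U2OS, against 9.15 and 9.81 CPM in HCT116 (log2 2.16 ± 0.18, edgeR adjusted p = 9.96e-08). Of the 7 tested genes of this list, 4 were higher and none lower.

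Per length, in the deposited TPM, KHDRBS1 averaged 176 in U2OS and 142 in HCT116, KHDRBS3 averaged 48.6 in U2OS and 8.52 in HCT116, and QKI averaged 36.1 in U2OS and 4.89 in HCT116. SAM68 mRNA was thus the most abundant of these 3 in both lines, and the margin over its relatives was wider in HCT116. Among other splicing regulators, the neuronal factors NOVA1, at 5.58 and 7.08 CPM in U2OS and 0 in HCT116, at least 77.4-fold higher, and NOVA2, at 24.6 and 38.7 CPM against 4.77 and 6.29 CPM (log2 2.53 ± 0.28), rose in U2OS with edgeR adjusted p = 7.25e-07 and 2.11e-06. PTBP2 was at 31.8 and 28.1 CPM in U2OS, against 9.19 and 10.6 CPM in HCT116 (log2 1.60 ± 0.33, edgeR adjusted p = 0.00072), while its paralog PTBP1 was lower, at 278 and 315 CPM against 572 and 481 CPM (log2 -0.83 ± 0.16), a call that ended under the GC content and length offset (-0.10). Of 23 regulators, all tested, 6 were higher and 8 lower, against 35.6% and 29.8% of all tested genes, so the list held no excess of higher members. The 8 became 4 without U2OS replicate 2 and 5 with library totals in place of TMM.

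The largest differences of all, ranked by the ratio of mean CPM among genes of at least 20 CPM in the higher line, included many list members. Beside SPARC, MMP2 and FBN2, the 12 largest increases held 3 genes of cell and matrix contact at 0 in HCT116: EDIL3, an integrin-binding protein, at 287 and 448 CPM in U2OS (at least 4497-fold higher), HAPLN1, which links proteoglycans to hyaluronan, at 224 and 334 CPM (at least 3406-fold), and TENM2, a teneurin, at 175 and 295 CPM (at least 2874-fold). COL4A2, a basement membrane collagen, was at 444 and 626 CPM in U2OS, against 0.289 and 0.0629 CPM in HCT116 (edgeR adjusted p = 1.91e-10), and TNC, the tenascin C gene, at 342 and 323 CPM, against 0.193 and 0.0629 CPM (edgeR adjusted p = 1.38e-10). Outside the matrix stood MAGEA4, a cancer-testis antigen, at 384 and 350 CPM in U2OS and 0 in HCT116 (at least 4485-fold higher), and NNMT, which methylates nicotinamide, at 253 and 328 CPM and 0 (at least 3549-fold). The remaining 2, TUBA3C and RPSA2, have near-identical copies elsewhere in the genome and are uncertain. RPSA2 was at 183 and 213 CPM in U2OS and 0 in HCT116, while the ribosomal gene RPSA itself was at 1852 and 1890 CPM in U2OS and 3460 and 3113 CPM in HCT116.

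The 12 largest decreases held the epithelial genes KRT19, CLDN7 and S100A14, the secreted DKK1 and IGFBP2, and NT5E. Another was ALDH1A3, which makes retinoic acid, at 0.443 and 0.0719 CPM in U2OS, against 483 and 542 CPM in HCT116 (edgeR adjusted p = 1.27e-10). GDA, a guanine deaminase, was at 0 in U2OS, against 99.5 and 112 CPM in HCT116 (at least 1779-fold lower), and TNFRSF10D, a decoy receptor for the death ligand TRAIL, was at 0, against 75.9 and 92.6 CPM (at least 1415-fold lower). CYBA, a subunit of NADPH oxidases, was at 0 and 0.0359 CPM in U2OS, against 103 and 49.7 CPM in HCT116, and MEST, an imprinted gene, at 0.0443 and 0.0359 CPM, against 73.6 and 65 CPM. CPNE7, a copine, was at 0 and 0.108 CPM in U2OS, against 81 and 64.5 CPM in HCT116. The edgeR adjusted p of each of these 12 genes was 4.74e-08 or lower.

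Ribosomal protein genes, a group with no tie to either tissue, were lower in U2OS in 34 of 50 members and higher in none, with a median log2 of -0.744 and 4 past 2-fold. Their summed level was 41203 and 41441 CPM in U2OS, against 70626 and 61980 CPM in HCT116. RPLP2 was at 234 and 192 CPM in U2OS, against 867 and 705 CPM in HCT116 (log2 -1.89 ± 0.25, edgeR adjusted p = 1.23e-05), and RPS28 at 143 and 123 CPM, against 473 and 309 CPM (log2 -1.56 ± 0.30). The count of 34 became 21 without HCT116 replicate 1. GC content moved with replicate number inside each line, with a rank correlation over genes between GC content and the log ratio of replicate 2 to replicate 1 of 0.408 in U2OS and -0.454 in HCT116, and over genes the log2 fold change between the lines correlated with GC content at -0.184. Under the offset for GC content and length 41 of the 50 ribosomal protein genes were called lower.

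Markers of blood, endothelium, liver, nerve and muscle were mostly low in both lines, with MAP2 an exception in U2OS. The summed level of 18 such genes was 34.9 and 42.4 CPM in U2OS, against 20.9 and 23.6 CPM in HCT116, and 6 of them had no count in U2OS and 6 none in HCT116. CD3E, HBB, TTR and MYOD1 were at 0 in all 4 libraries. Of 7 tested, 4 were higher and 1 lower in U2OS, against 35.6% and 29.8% of all tested genes. MAP2, a neuronal microtubule protein, was at 15 and 22.4 CPM in U2OS, against 4.62 and 5.47 CPM in HCT116 (log2 1.89 ± 0.26), VWF, of endothelium, at 2.17 and 3.13 CPM, against 0.337 and 0.314 CPM (log2 3.00 ± 0.59), and both calls ended in the 8 other libraries (0.53 and 1.16).

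The same lines were compared once more in 8 libraries that do not enter the contrast above: U2OS with SAM68 siRNA, control plasmid or SAM68 plasmid, against wild-type HCT116 with NORAD siRNA, 2 libraries each. There 10253 of 15991 tested genes were called (64.1%), 35.3% higher and 28.8% lower in U2OS. Of 5163 genes past 2-fold in the control siRNA libraries and tested in both, 5160 had the same direction and 5088 (98.5%) were called in it, with 1 called in the opposite direction. Of all 10525 called genes tested in both, 9089 (86.4%) were called again in the same direction and 3 in the opposite one. CDH1 was at 2.19 to 3.4 CPM in the 6 other U2OS libraries and 58.2 to 66.8 CPM in the 2 other wild-type HCT116 libraries, VIM at 2361 to 3575 CPM and 3.76 to 5.5 CPM, and TERT at 0 to 0.079 CPM and 7.2 to 9.01 CPM. ZEB1 was less even within U2OS, at 21.2 to 58 CPM in the 6 other libraries, against 3.87 to 5.82 CPM in HCT116. NORAD, which was knocked down on the HCT116 side only, had a log2 of 2.56 there, against 0.74 in the control siRNA libraries, and that value is no repeat of the line difference.

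**Figure D5:**
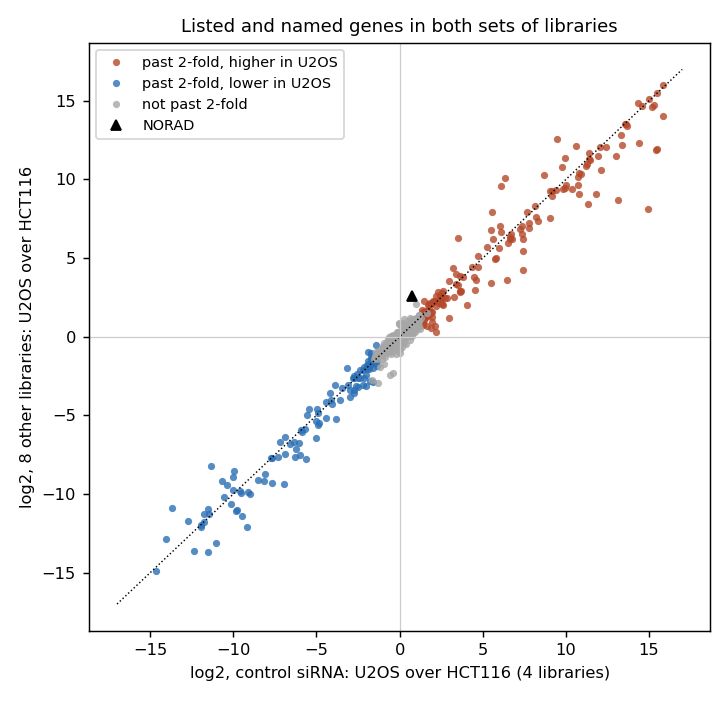
Log2 fold change, U2OS over HCT116, of listed and named genes in the 4 control siRNA libraries (horizontal) and in 8 other libraries of the same lines (vertical), as fitted, so that genes at 0 in one line stand far out, with a dotted line of equality. Colours mark genes past 2-fold in the control siRNA libraries. The triangle is NORAD, at 0.74 and 2.56, which the HCT116 libraries of the vertical axis had knocked down.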

How the data were processed

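RNA-seq of the 4 control siRNA libraries was analysed from the gene files deposited by the authors, 1 per library. Per the file headers these hold RSEM expected counts, estimated read counts that need not be whole, with TPM, which the authors normalized for length and library total, and the effective length in bases, another quantity deposited by the authors. The submitters' processing notes name STAR, RSEM and hg19. No source used here gives their versions or whether counting used the strand, so antisense, overlapping and near-identical genes are uncertain.

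Of 27434 rows, 25321 were named by gene number, 441 joined several genes, 1264 were further genomic copies and 118, with 0.0291% of counts, had no symbol. Expected counts were rounded, filtered with filterByExpr, scaled by TMM and put to the quasi-likelihood test of edgeR (edgeR 4.0.16, limma 3.58.1, R 4.3.3) over all 16 libraries in 8 groups, with 8 residual degrees of freedom and a biological coefficient of variation of 16.4%. That coefficient was 20% in the U2OS groups alone, 11.3% in the HCT116 groups alone and 13.6% in the 4 libraries alone. The code was tested on simulated data. Adjusted p-values are Benjamini-Hochberg over all tested genes, with a threshold of 0.05. Exact permutation of 2 against 2 libraries cannot go below a two-sided p of 0.333. For genes with no count in a line, folds are bounds against 3 counts over the pair of libraries (0.0595 CPM in U2OS, 0.0818 CPM in HCT116). Intervals and floors cover counting error only. For many genes with few counts in one line, levels are given without a fold, and the fitted folds printed for others with few counts are imprecise.

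The members and the 21 gene lists (525 genes) were chosen with earlier results of these data known. Named genes were the 3 perturbed or bound RNAs, the 4 markers, the 12 largest increases and decreases with at least 20 CPM in the higher line, and for each list of over 20 members up to 5 called members per direction with at least 5 CPM and the member nearest to 0. Any member of a smaller list could be named, and some genes outside this rule were named as well. Some genes are not reported here. Promoter letters came from RefSeq, build GRCh38.p14, and no hg19 coordinates are given. Alternatives were DESeq2 (1.42.0), RLE or total scaling, other filters, the 4 libraries alone, leaving out each library, a replicate block, 2 offsets and 8 other libraries.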

Additional observations from a re-analysis of the deposited data

How the results depend on the processing

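The number of genes called over the 14 alternatives stayed within 1.5 times 10760. It ran from 8983 to 9610 when 1 library was left out, was 10661 with DESeq2, 9815 with a 1 CPM filter and 11420 with the GC content and length offset, under which 9216 of 10177 calls tested in both were kept and 282 took the opposite direction. The number past 2-fold ran from 4434 to 5038 without 1 library. Past a log2 of 2 in place of 1 it was 3119, with 2262 higher and 857 lower. Library totals in place of TMM shifted the median by 0.16 and the share of calls higher in U2OS to 60.9%, against 54.5% with TMM. The labels do not pair libraries of different lines, and their replicate deviations correlated at -0.0831; with a replicate block 10896 genes were called and 5370 past 2-fold. Genes near 0 changed sign: KHDRBS1 was at 0.00 with DESeq2, 0.00 with RLE, 0.12 with totals and between -0.12 and 0.03 without 1 library; PUM2 at -0.18 with the GC content and length offset and -0.19 in the 8 other libraries; CAV1 at -0.11 and KLF5 at -0.10 with that offset; SNAI1 at 0.06 in the other libraries; MYO5B at 0.05 with totals and 0.12 in the other libraries; and OVOL2 between -0.74 and 2.10 without 1 library, at -0.01 with the effective length offset and -0.80 in the other libraries. The causes were not tested.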

Other observations

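More called genes had no count in HCT116 than in U2OS. Among called genes, 1211 had no count in HCT116 and 135 had none in U2OS. Those with no count in HCT116 were mostly weakly expressed, with a median of 2.4 CPM in U2OS and 800 of them below 5 CPM, while 1170 had a count in all 8 U2OS libraries and 979 were also at 0 in the other 2 wild-type HCT116 libraries. Genes with no count in U2OS had a median of 2.41 CPM in HCT116. At higher levels the imbalance remained, with 206 genes of at least 20 CPM in U2OS and under 0.1 CPM in HCT116, and 48 the other way. The U2OS libraries had a count in 19426 and 19505 rows and the HCT116 libraries in 16663 and 16364, at total counts of 20546908 and 25764606 in U2OS and 21425073 and 16203234 in HCT116. U2OS replicate 1 was shallower than HCT116 replicate 1 and had more rows with a count, while U2OS replicate 2 was the deepest of these libraries. The part of depth in the imbalance was not tested.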
